A study of Mus musculus with 48 samples.

Results

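Fabp5, Rdh11, Aqp8, Chrna4 and Akr1c18 are 5 liver-expressed genes outside cholesterol and fatty acid synthesis, taken from the 13542 genes measured well enough to test in livers of young mice whose sires had eaten a low protein diet (LPD) or a control diet (CD). They were chosen by their large LPD minus CD difference in the offspring labelled wild-type. Every wild-type value below therefore describes the choice and carries no test for these genes, whereas the ATF7+/- and ATF7+/+ offspring took no part in it. Each gene was read from the single-symbol probe set with the highest mean over the 48 arrays, and all 5 passed the filter on low signal.

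The sires received either diet between 3 and 12 weeks of age, and the median lobe of the liver was taken from male or female offspring at 3 weeks. The 6 groups of 8 arrays were wild-type LPD, ATF7+/- LPD, ATF7+/+ LPD, wild-type CD, ATF7+/- CD and ATF7+/+ CD. ATF7 is a stress-responsive transcription factor and ATF7+/- denotes mice with 1 intact copy. The labels do not say how the ATF7+/+ animals differ from the wild-type ones, nor which animals were male. The 8 arrays of each group are described as separate biological experiments, but 2 pairs of arrays, both in CD groups, differed little more than measurement noise, so each pair was averaged and counted as 1 sample. That left 7 samples in wild-type CD and in ATF7+/+ CD, 8 in each other group and 46 in all. P-values measure only the spread between these samples. The diet was given to the sires, yet each offspring sample was counted on its own. Sires and litters are not named in the sample titles, so how many sires stand behind a group is unknown. Sharing of a sire within a group was not taken into account.

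All levels are log2 values from Affymetrix arrays normalised by RMA, and a difference of 1 is a doubling. The arrays fell into an array set A of 18 and an array set B of 30, 3 and 5 in every group, parted by the widest gap along the leading component of variation in unannotated probe sets. The labels give no batch, and what separates the sets is unknown. The 7 measured hepatocyte markers, among them albumin, averaged between 12.7 and 13.0 in every sample.

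Paternal low protein diet is a model in which the father's nutrition before mating is followed in the metabolism of the offspring, and ATF7 is known to bind chromatin with histone H3K9 methyltransferases. The 5 genes do different jobs in the cell. Fabp5 encodes a fatty acid-binding protein that carries long-chain fatty acids and retinoic acid, and Rdh11 a microsomal retinal reductase. Aqp8 encodes a water channel of the hepatocyte, Chrna4 the alpha4 subunit of the nicotinic acetylcholine receptor, best known in neurons, and Akr1c18 the 20-alpha-hydroxysteroid dehydrogenase that inactivates progesterone.

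The genes lie on 5 different chromosomes. On GRCm38.p6, RefSeq places Chrna4 on chromosome 2 at 181022311 to 181043579, Fabp5 on chromosome 3 at 10012585 to 10016610 and Aqp8 on chromosome 7 at 123462294 to 123468003. Rdh11 lies on chromosome 12 at 79174233 to 79191855 and Akr1c18 on chromosome 13 at 4132615 to 4150646. RefSeq promoter windows, reaching 250 bases before and 50 bases after a start site, were at hand for 4 of the 5, with a pair of windows for Rdh11. Windows of Rdh11 and Chrna4 are shown because the r of this pair was 0.60 across single ATF7+/- and ATF7+/+ samples. That of Aqp8 is shown because its correlation with the cholesterol synthesis genes was the lowest of the 5. For Rdh11 the second window is printed, the only window of these genes that held motif matches. Capitals mark motif matches, and each sequence runs 5′ to 3′ along its gene.
Rdh11, chr12:79190912-79191211, minus strand: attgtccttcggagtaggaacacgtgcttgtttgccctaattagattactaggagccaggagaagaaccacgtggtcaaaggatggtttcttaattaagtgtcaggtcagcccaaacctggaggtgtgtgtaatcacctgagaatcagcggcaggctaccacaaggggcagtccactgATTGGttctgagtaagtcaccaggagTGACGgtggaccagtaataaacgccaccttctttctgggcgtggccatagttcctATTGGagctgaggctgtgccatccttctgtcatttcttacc
Chrna4, chr2:181039128-181039427, minus strand: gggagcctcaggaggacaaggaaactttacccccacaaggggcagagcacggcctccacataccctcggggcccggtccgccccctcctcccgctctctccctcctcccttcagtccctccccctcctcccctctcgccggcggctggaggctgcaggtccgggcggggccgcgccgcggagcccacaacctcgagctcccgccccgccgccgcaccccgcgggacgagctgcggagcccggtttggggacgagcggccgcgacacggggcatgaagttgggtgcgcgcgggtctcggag
Aqp8, chr7:123462044-123462343, plus strand: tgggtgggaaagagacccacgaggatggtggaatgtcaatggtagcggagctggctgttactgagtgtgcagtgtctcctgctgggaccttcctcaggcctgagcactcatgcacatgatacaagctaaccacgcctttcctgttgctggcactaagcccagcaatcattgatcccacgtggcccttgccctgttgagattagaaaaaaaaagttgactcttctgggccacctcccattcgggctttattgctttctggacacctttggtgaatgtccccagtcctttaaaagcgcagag

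Each window was searched on both strands for TGACGTCA, the full cyclic AMP response element that ATF proteins bind, for the shorter TGACG, which the full element contains, for the sterol element TCACNCCAC and for the CCAAT box. In the second Rdh11 window, TGACG began 46 bases before the start site (position -46), and the reverse of CCAAT began at positions -72 and 10. The first Rdh11 window and those of Chrna4, Aqp8 and Akr1c18 held none of these letters. Of the 32851 RefSeq promoter windows of this length, 1.79% held TGACGTCA, 20.8% TGACG, 1.24% TCACNCCAC and 37.4% CCAAT. GC content was 74.3% in the Chrna4 window, against 52.0% in that of Aqp8, 49.7% in the second of Rdh11 and 42.3% in that of Akr1c18.

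In wild-type offspring the 5 genes were among the 12 largest positive diet differences of all 13542 genes. Fabp5 ranked first, Chrna4 at 3, Akr1c18 at 5, Rdh11 at 11 and Aqp8 at 12, and the ranks between were held by Cyp3a16 (2), Hsd3b5 (4) and the lipid synthesis genes Sqle, Idi1, Cyp51, Acss2 and Nsdhl. Over all genes, limma called 487 (3.6%) in that comparison at an adjusted p of 0.05, of which 377 (2.78%) were higher and 110 (0.812%) lower with LPD. For all 5 genes the wild-type CD group had the lowest mean of the 6 groups.

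**Figure D1:**
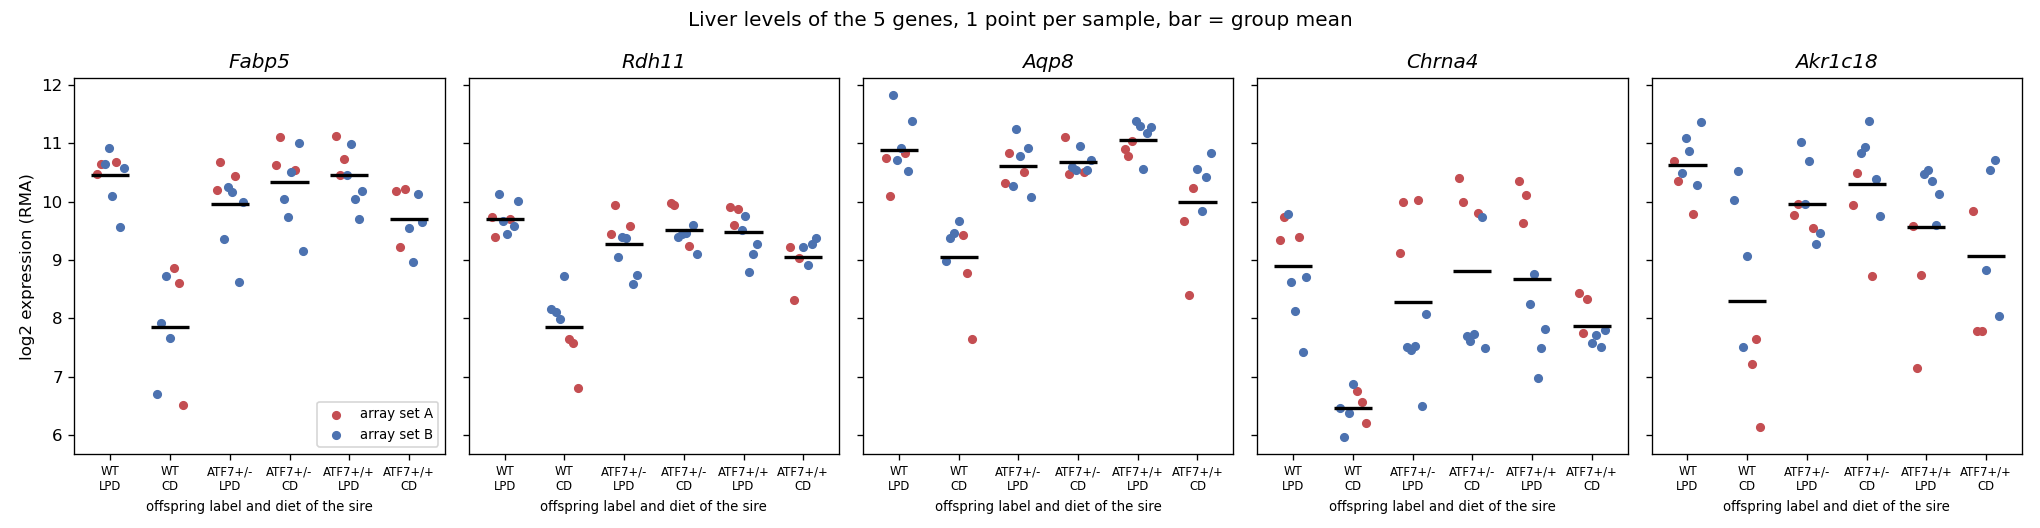
Log2 expression (vertical axis) of the 5 genes in each of the 46 samples, by offspring label and sire diet (horizontal axis), with points coloured by array set and bars at the group means. For Fabp5 the wild-type CD samples lay between 6.51 and 8.87, a range that held 1 sample of the other 5 groups, at 8.62 in ATF7+/- LPD.

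Fabp5 is a lipid chaperone first described in skin, and its relative Fabp1 is the usual form of the liver. Fabp5 ran from 9.56 through a median of 10.61 to 10.92 in wild-type LPD livers, against 6.51, 7.92 and 8.87 in wild-type CD livers. In ATF7+/- offspring Fabp5 had 8.62, 10.19 and 10.68 (lowest, median, highest) with LPD and 9.15, 10.53 and 11.11 with CD. In ATF7+/+ offspring Fabp5 had 9.71, 10.45 and 11.13 with LPD and 8.96, 9.65 and 10.22 with CD. The wild-type groups did not overlap, while in both other labels the diets overlapped, with 5 of 8 ATF7+/+ LPD samples above the highest ATF7+/+ CD sample. Means ran 10.46 ± 0.48 in ATF7+/+ LPD, 10.45 ± 0.43 in wild-type LPD, 10.34 ± 0.66 in ATF7+/- CD, 9.97 ± 0.66 in ATF7+/- LPD, 9.70 ± 0.50 in ATF7+/+ CD and 7.86 ± 0.96 in wild-type CD (SD, n = 8 samples a group, or 7 in wild-type CD and ATF7+/+ CD). Only the last step in that order was larger than the SD of both neighbours. For each of the 5 genes the last step ends at wild-type CD, though for Akr1c18 it did not exceed the SDs of its neighbours. Those samples helped choose the genes, so setting steps beside SDs describes the choice and is no test. The wild-type difference was 2.59 ± 0.31 (SE), a 6.03-fold ratio, and was 2.61 within either array set. A second Fabp5 probe set stayed within 0.29 of the first on every array and gave diet differences of 2.63 for wild-type, -0.37 for ATF7+/- and 0.78 for ATF7+/+ offspring.

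Rdh11 reduces retinal to retinol and other short-chain aldehydes to alcohols. Rdh11 ran from 9.40 through 9.69 to 10.13 in wild-type LPD livers, against 6.81, 7.98 and 8.72 in wild-type CD livers. In ATF7+/- offspring it had 8.59, 9.39 and 9.95 with LPD and 9.11, 9.45 and 9.97 with CD. In ATF7+/+ offspring it had 8.79, 9.56 and 9.91 with LPD and 8.31, 9.22 and 9.37 with CD. Again the wild-type groups alone stood apart. The ATF7+/- CD samples all lay above every wild-type CD sample, as did 6 of the 7 ATF7+/+ CD samples. The ATF7+/- CD samples did so too for Fabp5, Aqp8 and Chrna4, but only 3 of 8 for Akr1c18. Among ATF7+/+ CD samples it was 7 of 7 for Fabp5 and Chrna4, 5 for Aqp8 and 2 for Akr1c18. These comparisons share the wild-type CD samples that chose the genes, and the share of all genes was not counted. The wild-type difference of Rdh11 was 1.85 ± 0.20, with 2.27 among set A samples and 1.53 among set B samples. A probe set naming both Pwwp3a and Rdh11 was not used. Its mean was 5.98, against 9.17 for the one used. Its diet differences were -0.08 for wild-type, -0.09 for ATF7+/- and -0.18 for ATF7+/+ offspring. Means ran from 9.71 ± 0.25 in wild-type LPD through 9.52 ± 0.31 in ATF7+/- CD, 9.48 ± 0.39 in ATF7+/+ LPD, 9.27 ± 0.45 in ATF7+/- LPD and 9.05 ± 0.36 in ATF7+/+ CD to 7.86 ± 0.60 in wild-type CD, and only the last step exceeded the SD of both neighbours.

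Aqp8 conducts water, and in hepatocytes it is found in the canalicular membrane and inside the cell. Aqp8 ran from 10.10 through 10.79 to 11.82 in wild-type LPD livers, against 7.64, 9.38 and 9.67 in wild-type CD livers. In ATF7+/- offspring it had 10.08, 10.65 and 11.24 with LPD and 10.48, 10.57 and 11.10 with CD. In ATF7+/+ offspring it had 10.56, 11.11 and 11.38 with LPD and 8.40, 10.23 and 10.83 with CD. Wild-type groups did not overlap, and 6 of the 8 ATF7+/+ LPD samples lay above every ATF7+/+ CD sample. The wild-type difference was 1.83 ± 0.26, with 1.94 among set A samples and 1.70 among set B samples. Means ran from 11.06 ± 0.29 in ATF7+/+ LPD through 10.88 ± 0.52 in wild-type LPD, 10.68 ± 0.23 in ATF7+/- CD, 10.62 ± 0.39 in ATF7+/- LPD and 9.99 ± 0.81 in ATF7+/+ CD to 9.05 ± 0.69 in wild-type CD, and the last step alone exceeded the SD of both neighbours.

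Chrna4 forms the common neuronal nicotinic receptor together with the beta2 subunit, Chrnb2. Chrna4 ran from 7.42 through 9.03 to 9.79 in wild-type LPD livers, against 5.97, 6.46 and 6.87 in wild-type CD livers. In ATF7+/- offspring it had 6.50, 7.80 and 10.02 with LPD and 7.49, 8.74 and 10.41 with CD. In ATF7+/+ offspring it had 6.98, 8.51 and 10.35 with LPD and 7.51, 7.74 and 8.43 with CD. The wild-type groups were separate and the wild-type CD samples tightly grouped, whereas both ATF7+/- groups and ATF7+/+ LPD were spread widely. There the spread followed the array sets. Chrna4 averaged 9.71 in set A and 7.41 in set B in ATF7+/- LPD, 10.07 and 8.05 in ATF7+/- CD, and 10.04 and 7.86 in ATF7+/+ LPD, with every set A sample above every set B sample in these 3 groups. The sets differed less in wild-type LPD (9.49 in A, 8.53 in B), ATF7+/+ CD (8.17 in A, 7.65 in B) and wild-type CD (6.51 in A, 6.42 in B), where they overlapped. The wild-type CD mean, 6.46, lay nearest of the 6 group means to the low-signal filter at 5.46. Whether that low level narrowed the spread and the set gap of wild-type CD was not tested. The wild-type difference was 2.44 ± 0.50, with 2.98 among set A samples and 2.12 among set B samples. Group means ran from 8.89 ± 0.83 in wild-type LPD through 8.81 ± 1.28 in ATF7+/- CD, 8.68 ± 1.25 in ATF7+/+ LPD, 8.28 ± 1.30 in ATF7+/- LPD and 7.87 ± 0.36 in ATF7+/+ CD to 6.46 ± 0.31 in wild-type CD, with only the last step beyond both SDs.

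Akr1c18 belongs to the aldo-keto reductase family and is best known for ending progesterone action in the mouse ovary. Akr1c18 ran from 9.79 through 10.60 to 11.37 in wild-type LPD livers, against 6.14, 7.64 and 10.52 in wild-type CD livers. In ATF7+/- offspring it had 9.27, 9.87 and 11.02 with LPD and 8.72, 10.44 and 11.38 with CD. In ATF7+/+ offspring it had 7.14, 9.87 and 10.55 with LPD and 7.78, 8.82 and 10.71 with CD. Akr1c18 was the only one of the 5 whose wild-type groups overlapped, with 4 of 8 LPD samples above the highest CD sample. The wild-type difference was 2.32 ± 0.52, with 3.28 among set A samples and 1.54 among set B samples. Group means ran from 10.62 ± 0.50 in wild-type LPD through 10.31 ± 0.83 in ATF7+/- CD, 9.96 ± 0.61 in ATF7+/- LPD, 9.57 ± 1.15 in ATF7+/+ LPD and 9.07 ± 1.28 in ATF7+/+ CD to 8.30 ± 1.60 in wild-type CD, and no step exceeded the SD of both neighbours.

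Wild-type CD replicate 8, in array set A, had the lowest wild-type CD value of Fabp5, Rdh11, Aqp8 and Akr1c18. Without that sample the wild-type differences were 2.37 for Fabp5, 1.68 for Rdh11, 1.60 for Aqp8, 2.39 for Chrna4 and 1.96 for Akr1c18. Beside the 4 genes without overlap, 61 of all 13542 genes (0.45%) had every wild-type LPD sample above every wild-type CD sample, in the comparison that chose the 4. Setting the other labels against wild-type with CD gave ATF7+/- minus wild-type differences of 2.49 for Fabp5, 1.66 for Rdh11, 1.63 for Aqp8, 2.35 for Chrna4 and 2.002 for Akr1c18. ATF7+/+ minus wild-type differences with CD were 1.84, 1.20, 0.94, 1.42 and 0.77 in the same gene order. These share the wild-type CD samples with the comparison that chose the genes and are given untested. With LPD the matching differences lay between -0.66 and -0.26 for ATF7+/- and between -1.05 and 0.17 for ATF7+/+ offspring.

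Whether the diet difference was also present in offspring that did not choose the genes was asked first in ATF7+/- mice. None of the 5 genes passed the test there, and all 5 LPD minus CD differences were negative, with a median of -0.34, against a median of 0.00 over all genes. In ATF7+/- offspring limma called 0 of 13542 genes (0%), and 178 had an unadjusted p under 0.05, none of them among the 5. Chrna4 differed by -0.53 (95% interval -1.50 to 0.44), Fabp5 by -0.38 (-0.99 to 0.24), Akr1c18 by -0.34 (-1.35 to 0.66), Rdh11 by -0.25 (-0.64 to 0.14) and Aqp8 by -0.06 (-0.56 to 0.44), each with an adjusted p of 1.

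In ATF7+/+ offspring all 5 differences were positive, with a median of 0.76 against 0.01 over all genes, and none passed the adjusted threshold. limma called 1 of 13542 genes (0.00738%), and 621 had an unadjusted p under 0.05. Aqp8 differed by 1.06 ± 0.26 (SE), a 2.09-fold ratio, with a limma p of 0.000164 and an adjusted p of 0.185. With array set as a block the Aqp8 value was 1.04 with an adjusted p of 0.0495, beside 17 genes (0.126%) called in that fit. Within the sets Aqp8 gave 1.48 in A and 0.73 in B, neither past the threshold. Fabp5 differed by 0.76 ± 0.31 (adjusted p = 0.978) and Rdh11 by 0.43 ± 0.20 (adjusted p = 0.9995), both with a limma 95% interval above 0. Chrna4 differed by 0.80 (95% interval -0.20 to 1.81) and Akr1c18 by 0.50 (-0.54 to 1.54).

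The array sets moved the ATF7+/+ value of Chrna4 most. In set A alone, with 3 samples a group, the difference was 1.87 with a limma adjusted p of 0.00182, and 59 genes (0.436%) were called. In set B alone it was 0.21, with an adjusted p of 0.923. Rdh11 likewise gave 0.93 in A and 0.10 in B, whereas Akr1c18 gave 0.02 in A and 0.69 in B, and Fabp5 gave 0.90 in A and 0.71 in B. Whether the sets themselves differed in these diet differences was not tested.

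**Figure D2:**
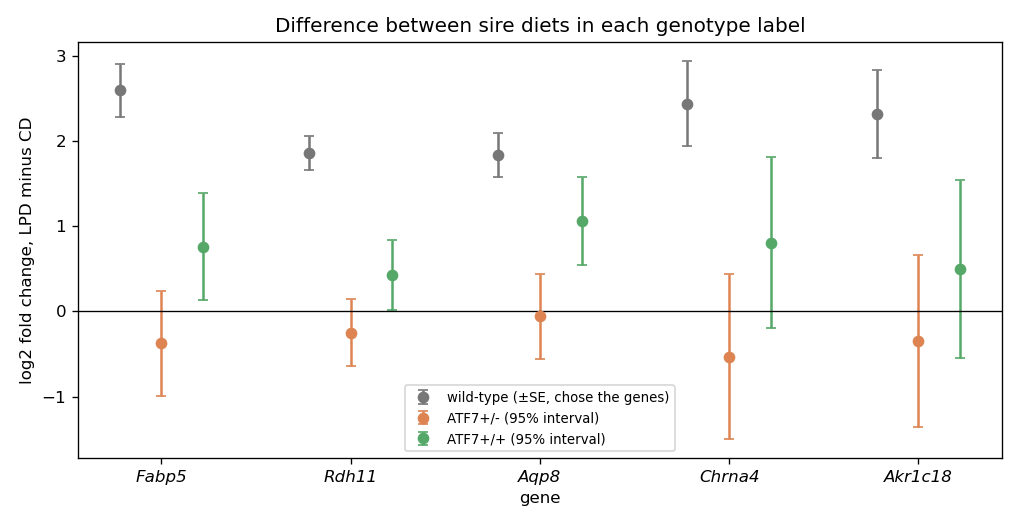
LPD minus CD log2 difference (vertical axis) of each gene (horizontal axis) in wild-type, ATF7+/- and ATF7+/+ offspring, with the SE for wild-type and 95% intervals for the other labels. The ATF7+/- values lie below 0 (-0.53 to -0.06), the ATF7+/+ values above it (0.43 to 1.06), and the wild-type values, which chose the genes, between 1.83 and 2.59.

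**Figure D3:**
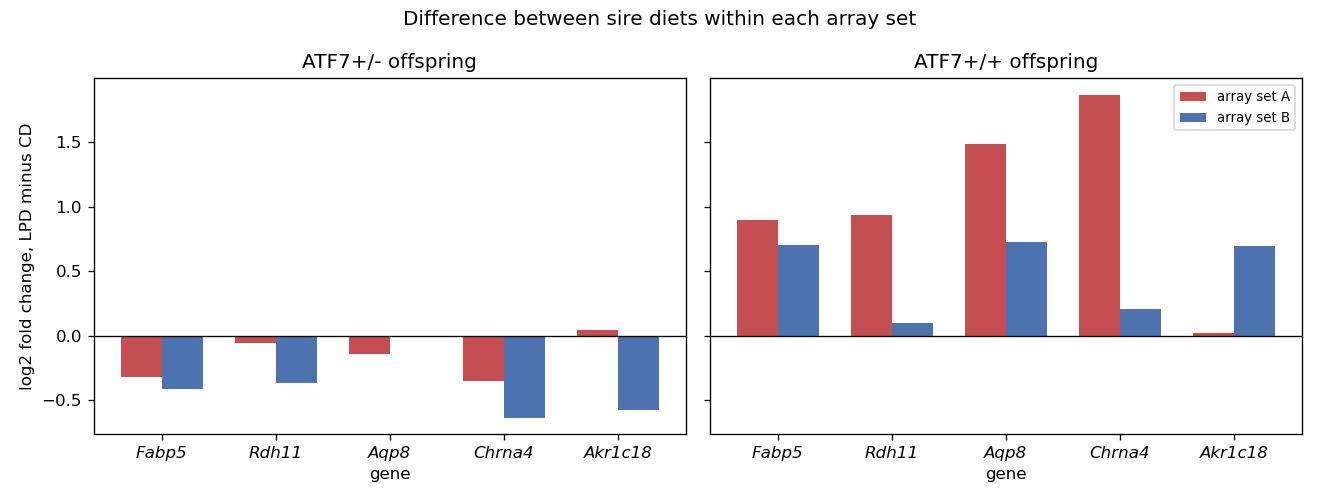
LPD minus CD log2 difference (vertical axis) of each gene (horizontal axis) within array set A and array set B, in ATF7+/- (left) and ATF7+/+ (right) offspring. In ATF7+/+ offspring the Chrna4 bars reach 1.87 (set A) and 0.21 (set B).

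The diet difference in ATF7+/- offspring minus that in ATF7+/+ offspring was negative for all 5 genes and passed the threshold for none, against 0 of all 13542 genes. Chrna4 gave -1.34 (95% interval -2.73 to 0.06), Fabp5 -1.14 (-2.02 to -0.26), Aqp8 -1.12 (-1.84 to -0.40), Akr1c18 -0.84 (-2.29 to 0.61) and Rdh11 -0.68 (-1.24 to -0.12). The limma p-values were 0.0126 for Fabp5, 0.0194 for Rdh11 and 0.00308 for Aqp8, and the adjusted p was 1 for each gene. Unadjusted p-values under 0.05 were found for 380 genes in that test.

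ATF7+/- minus ATF7+/+ differences at each sire diet complete the tests. With CD all 5 were positive, at 1.23 ± 0.52 (SE) for Akr1c18, 0.94 ± 0.50 for Chrna4, 0.69 ± 0.26 for Aqp8, 0.64 ± 0.31 for Fabp5 and 0.47 ± 0.20 for Rdh11. None was called, with limma adjusted p-values of 0.554 to 0.781, against 0 of all genes called. The unadjusted limma p was under 0.05 for 4 of the 5, all but Chrna4, and for 914 of all genes (6.75%). In array set A alone Rdh11 (0.86, adjusted p = 0.036) and Chrna4 (1.90, adjusted p = 0.000548) passed the threshold, in a comparison where 9.32% of all genes did. In array set B alone Rdh11 gave 0.21 (adjusted p = 0.823) and Chrna4 0.40 (adjusted p = 0.857). With LPD the differences were -0.50 for Fabp5, -0.44 for Aqp8, -0.40 for Chrna4, -0.21 for Rdh11 and 0.39 for Akr1c18. None of the LPD differences was called, against 0 of all genes called and 908 with an unadjusted p under 0.05, none of them among the 5.

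Whether the 5 genes varied together from animal to animal was examined in the 31 ATF7+/- and ATF7+/+ samples, as deviations from the mean of each group and array set. Of the 10 gene pairs, 4 passed the adjusted threshold, those among Fabp5, Rdh11 and Chrna4 and that of Rdh11 with Aqp8, but the pairs with Chrna4 did not pass once same-numbered samples were averaged. The share of all gene pairs that would pass was not counted, so the 4 do not set these genes apart. By r with Rdh11, Aqp8 ranked 79 and Chrna4 169 among the 13541 other genes. The strongest of the 10 gene pairs was Fabp5 with Rdh11, at a Pearson r of 0.74 and a Spearman rho of 0.74 (permutation p = 1e-05 for both, the smallest the 100000 draws can give, adjusted p = 0.00015 over 15 relations). Fabp5 with Chrna4 gave r = 0.71 and rho = 0.64 (permutation p = 0.00017 and 0.00039, adjusted 0.00085 and 0.00195). Rdh11 with Aqp8 gave r = 0.65 and rho = 0.63 (permutation p = 0.00357 and 0.0031, adjusted 0.00716 and 0.00664). Rdh11 with Chrna4 gave r = 0.60 and rho = 0.64 (permutation p = 0.00048 and 0.00083, adjusted 0.00144 and 0.00311). Leaving out the 2 samples farthest from the median of the first gene gave r = 0.73, 0.59, 0.52 and 0.54 for these pairs in that order. Within the sets, Fabp5 with Rdh11 gave r = 0.83 in A (12 samples) and 0.75 in B (19 samples), Fabp5 with Chrna4 0.69 and 0.71, Rdh11 with Aqp8 0.75 and 0.57, and Rdh11 with Chrna4 0.77 and 0.58. Of these, the adjusted permutation p missed the threshold in set A for Fabp5 with Chrna4 (0.0607) and in both sets for Rdh11 with Aqp8 (0.111 in A, 0.0681 in B).

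No pair with Akr1c18 passed the adjusted threshold on r. Its r was 0.43 with Rdh11 (permutation p = 0.0305, adjusted p = 0.0508), 0.36 with Fabp5 (permutation p = 0.0698, adjusted p = 0.105), 0.18 with Chrna4 (permutation p = 0.276, adjusted p = 0.345) and -0.06 with Aqp8 (permutation p = 0.824, adjusted p = 0.824). Aqp8 gave r = 0.34 with Fabp5 (permutation p = 0.123, adjusted p = 0.167) and 0.17 with Chrna4 (permutation p = 0.322, adjusted p = 0.371). The rho values of these 6 pairs lay between -0.07 and 0.47, and rho for Rdh11 with Akr1c18 passed the threshold at 0.47 (adjusted permutation p = 0.0248).

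The mean of 19 genes of cholesterol synthesis and uptake was set beside the 5 genes in the same samples. How many other genes followed that mean as closely was not counted. Rdh11 followed it most closely at r = 0.76 and rho = 0.75 (permutation p = 8e-05 and 0.00016, adjusted 0.0006 and 0.0012), then Fabp5 at r = 0.65 and rho = 0.58 (permutation p = 0.00036 and 0.00248, adjusted 0.00135 and 0.0062). Chrna4 gave r = 0.58 and rho = 0.55 (permutation p = 0.00382 and 0.0081, adjusted 0.00716 and 0.0152) and Akr1c18 r = 0.475 and rho = 0.53 (permutation p = 0.00167 and 0.00169, adjusted 0.00418 and 0.00507). Aqp8 gave r = 0.14 and rho = 0.12 (permutation p = 0.491 and 0.587). Without the 2 samples farthest from the median of the gene, r was 0.79 for Rdh11, 0.58 for Fabp5, 0.54 for Chrna4, 0.55 for Akr1c18 and 0.09 for Aqp8. Within the sets the r was 0.82 (A) and 0.72 (B) for Rdh11, 0.64 (A) and 0.67 (B) for Fabp5, 0.59 in both for Chrna4, 0.55 (A) and 0.43 (B) for Akr1c18, and 0.42 (A) and -0.06 (B) for Aqp8. Among set A samples only Rdh11 of the 5 passed the adjusted threshold, and among set B samples Rdh11, Fabp5 and Chrna4 did. Akr1c18 missed the threshold within each set (adjusted permutation p = 0.0607 in A and 0.0642 in B) at an r close to that of all samples. With the array set left in, as deviations from the group alone, its r was 0.11 (adjusted permutation p = 0.642).

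The permutations moved samples freely within group and array set, although ATF7+/- and ATF7+/+ samples of the same replicate number may be related. As a check added after seeing the data, same-numbered LPD and CD samples were averaged, which left 16 units, and permuted within label and array set. Fabp5 with Rdh11 then gave r = 0.76 and rho = 0.76 (permutation p = 0.0101 and 0.00804, adjusted 0.0343 and 0.0375), and Rdh11 with Aqp8 r = 0.70 and rho = 0.59 (permutation p = 0.0128 and 0.0301, adjusted 0.0343 and 0.0644). Chrna4 gave r = 0.26 with Fabp5 (adjusted permutation p = 0.517), 0.38 with Rdh11 (0.307) and 0.22 with the cholesterol list (0.517), none past the threshold. Akr1c18 with Fabp5, which had not passed across single samples, gave r = 0.75 (adjusted permutation p = 0.0343). With the cholesterol list r was 0.66 for Rdh11, 0.61 for Fabp5 (adjusted permutation p = 0.0343 for both) and 0.76 for Akr1c18 (0.00915).

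**Figure D4:**
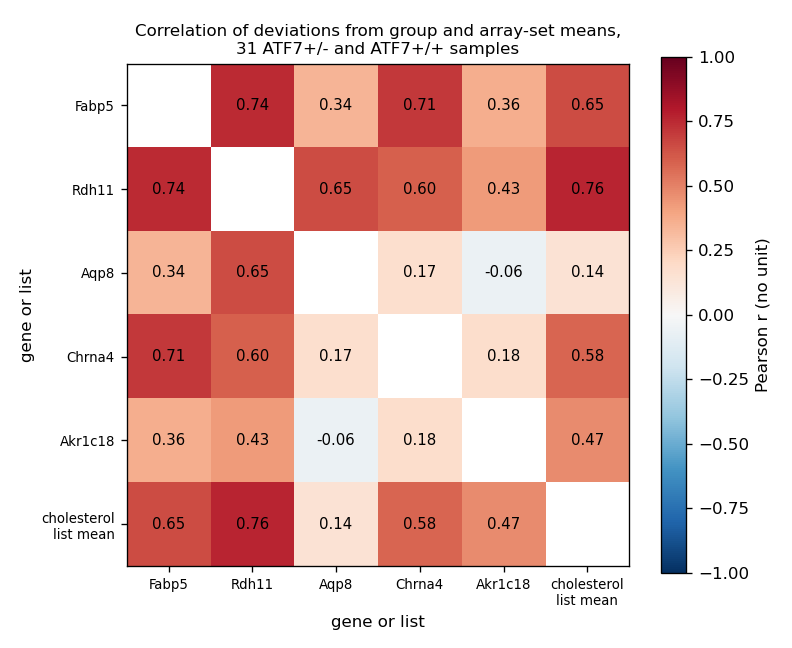
Pearson r (colour and printed number, no unit) between the 5 genes and the mean of the cholesterol list, across the 31 ATF7+/- and ATF7+/+ samples after removing group and array set means. Values among Fabp5, Rdh11, Chrna4 and the cholesterol list are 0.58 to 0.76, Rdh11 with Aqp8 is at 0.65, and Aqp8 with Akr1c18 is at -0.06. Once same-numbered samples were averaged, Chrna4 gave 0.26 with Fabp5, 0.38 with Rdh11 and 0.22 with the cholesterol list.

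Among all 13541 other genes, those most like each of the 5 are given as a description. The closest to Rdh11 were Idh1, the cytosolic NADP isocitrate dehydrogenase (r = 0.88), the sterol enzymes Nsdhl (0.87) and Cyp51 (0.80), Pyurf (0.79) and Echdc1 (0.78). The closest to Fabp5 were Igkv19-93 (0.81), the aldolase Aldoc (0.80), the sterol enzymes Nsdhl (0.79) and Tm7sf2 (0.76) and Pdzk1ip1 (0.76), while Rdh11 stood at rank 7 and Chrna4 at rank 11. Chrna4 had the sterol enzymes Lss (0.77) and Pmvk (0.74), the lipase Pnpla3 (0.73), the ATP citrate lyase Acly (0.71) and Tlcd1 (0.71) closest, with Fabp5 at rank 7. The 5 closest to Aqp8 were Cnp (0.84), Mettl22 (0.82), Tfpi2 (0.80), Acad8 (0.80) and Camk1d (0.80), and those closest to Akr1c18 were Lancl2 (0.84), Tpmt (0.83), Mpdu1 (0.82), Fam3c (0.78) and Eftud2 (0.78). Other ranks were lower. For Rdh11, Fabp5 stood at rank 16, Aqp8 at 79, Chrna4 at 169 and Akr1c18 at 1101. For Chrna4, Rdh11 stood at 37, Akr1c18 at 2375 and Aqp8 at 2494. For Fabp5, Akr1c18 stood at 622 and Aqp8 at 752. For Aqp8 the highest rank of the other members was 140 (Rdh11), and for Akr1c18 it was 1393 (Rdh11). Of the 5 nearest genes, 2 were in the cholesterol list for each of Fabp5, Rdh11 and Chrna4, and none for Aqp8 or Akr1c18. That list holds 19 of the 13542 genes, so its absence among 5 nearest genes sets no gene apart. Akr1c18 itself followed the list mean at r = 0.475.

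Relatives of the 5 genes were read in the wild-type diet comparison, where each could be tested. In that comparison 3.6% of all genes were called. An absence of calls in lists this short therefore sets none of the 5 genes apart from its relatives. No other fatty acid-binding protein was called among the 5 measured of 9 listed, with a median difference of 0.20 and a range of -0.27 to 0.39. Of the other aquaporins, 0 of the 9 measured of 11 listed were called (median 0.01), with Aqp5 at -0.16 ± 0.09 (SE, limma adjusted p = 0.375) and Aqp7 at 0.37 ± 0.21 (adjusted p = 0.41). Of the other nicotinic receptor subunits 4 of 15 passed the filter on low signal and none was called. Chrnb2, the usual partner of Chrna4, was at -0.25 ± 0.09 (adjusted p = 0.0962).

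Of 28 measured retinoid-handling genes out of 34 listed, 3 rose and 1 fell with LPD in wild-type offspring, with a median of 0.08, where 2.78% of all genes rose and 0.812% fell. Aldh1a7, an aldehyde dehydrogenase close to Aldh1a1, rose by 0.94 ± 0.20 (SE, limma adjusted p = 0.0032). Lrat, which esterifies retinol for storage, rose by 0.53 ± 0.15 (adjusted p = 0.0352), and Rarb, a retinoic acid receptor, by 0.52 ± 0.13 (adjusted p = 0.0148). Rdh13, a mitochondrial relative of Rdh11, fell by 0.29 ± 0.08 (adjusted p = 0.0297). Of these calls only that of Aldh1a7 held in all 14 other settings and all 15 fits without 1 sample. Without wild-type CD replicate 8 the adjusted p was 0.0603 for Rarb, 0.116 for Rdh13 and 0.164 for Lrat.

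Among relatives of Akr1c18 and other enzymes of steroid reduction, 2 of 16 measured out of 20 listed rose and none fell, with a median of 0.11, beside the same shares of all genes (2.78% and 0.812%). Hsd17b2, which oxidises estradiol, rose by 0.60 ± 0.17 (limma adjusted p = 0.0309) and Akr1c20 by 0.45 ± 0.13 (adjusted p = 0.038). Without wild-type CD replicate 8 the adjusted p was 0.137 for Hsd17b2 and 0.168 for Akr1c20. Over the 14 other settings the call of Hsd17b2 held in 10 and that of Akr1c20 in 7. Over the 15 fits without 1 sample the calls held in 8 and 7. Hsd3b5, a mouse 3-ketosteroid reductase, had a difference of 2.41 ± 0.73 with an adjusted p of 0.0526, which missed the threshold. Hsd3b5 passed with array set as a block (2.39, adjusted p = 0.0287) and in set A alone (3.74, adjusted p = 0.000234), but not in set B alone (1.39, adjusted p = 0.484). For comparison, all 19 measured cholesterol genes rose in wild-type offspring, with a median of 1.33, and 13 of 19 fatty acid synthesis genes, with a median of 0.90. The lists were drawn up with results of these samples known, so those directions are no independent evidence. In ATF7+/- and ATF7+/+ offspring no gene of any of these lists was called. The cholesterol list had a median of -0.27 in ATF7+/- and 0.19 in ATF7+/+ offspring, and the fatty acid list -0.02 in ATF7+/- and 0.44 in ATF7+/+.

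Markers of other liver cells were read beside the wild-type differences, since in whole tissue fewer cells of a type and less RNA per cell cannot be told apart. Of all genes, 2.78% rose and 0.812% fell in that comparison. None of 7 hepatocyte, 8 macrophage, 3 cholangiocyte and 3 adipocyte markers measured was called. Of 8 stellate cell markers Acta2 (0.67 ± 0.17, limma adjusted p = 0.0134) and Reln (0.42 ± 0.12, adjusted p = 0.0368) rose, and the list mean ran from 8.17 to 8.56 in wild-type LPD and from 7.75 to 8.28 in wild-type CD. Of 6 endothelial markers Cdh5 rose (0.34 ± 0.08, adjusted p = 0.0105), with list means of 9.10 to 9.36 in wild-type LPD and 8.72 to 9.40 in wild-type CD. Of 3 erythroid markers Alas2 rose (0.84 ± 0.22, adjusted p = 0.0196), with list means of 7.04 to 7.56 in wild-type LPD and 6.47 to 7.92 in wild-type CD. The other erythroid markers, Slc4a1 (0.71, limma adjusted p = 0.28) and Klf1 (-0.15, adjusted p = 0.697), were not called. Only Syt1 of 6 neuron markers passed the filter, at 0.28 ± 0.20 (adjusted p = 0.548). Without wild-type CD replicate 8 the adjusted p was 0.0514 for Acta2, 0.142 for Reln and 0.0526 for Cdh5, and without wild-type LPD replicate 1 it was 0.0545 for Alas2. These calls held in array set A alone but not in set B alone. The limma adjusted p in set B was 0.12 for Acta2, 0.43 for Reln, 0.15 for Cdh5 and 0.31 for Alas2. No marker was called for either other label, and the part of these markers in the differences of the 5 genes was not tested.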

How the data were processed

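The authors deposited log2 values for 35556 probe sets on 48 arrays; the submitters' processing notes name RMA and the Affymetrix Expression Console. Of 23410 probe sets with a platform annotation 21789 name 1 symbol and 1621 several, and 12146 are not listed. No count or read depth applies, and the number of arrays limits precision. Probe sets with a mean under the 40th percentile (5.46) were dropped, and the probe set with the highest mean represented each gene. Near-identical pairs were those whose root mean square difference over the 5% most variable genes was under 1.5 times that over stable genes of the same level (1.36 and 1.49, against 2.28 to 6.40 for the other pairs of a group). limma 3.58.1 (R 4.3.3) was fitted with 1 mean per group over 46 samples, two-sided, and p-values were adjusted by Benjamini-Hochberg over 13542 genes. Correlations were tested by permuting within group and array set, in Python 3.11.15. The 5 genes, the gene lists and the tests were chosen with earlier results of these data known. Named genes were the 5, the 5 most like each, and of each list the members called or up to 4 with the smallest p. Same-numbered samples deviated together in every pair in ATF7+/- (r of 0.18 to 0.74, 8 pairs) and ATF7+/+ offspring (0.30 to 0.67, 7 pairs), but not in wild-type offspring (-0.47 to 0.50, 7 pairs). All of the ATF7+/- and ATF7+/+ pairs, but 3 of the 7 wild-type pairs, lay in 1 array set, and with array set means removed r was -0.04 to 0.38, -0.16 to 0.35 and -0.24 to 0.10 for ATF7+/-, ATF7+/+ and wild-type pairs. That r was above 0.1 in 4 of 8 ATF7+/- pairs, 3 of 7 ATF7+/+ pairs and 0 of 7 wild-type pairs. Much of the shared deviation thus went with the array set, but some remained in part of the ATF7+/- and ATF7+/+ pairs. Whether the numbers mark related animals was not tested, and fits with the number as a block were run as alternatives. Scripts were tested on simulated data.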

Additional observations from a re-analysis of the deposited data

How the results depend on the processing

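Other filters, normalisations, probe set choices, variance priors, array weights, sample sets, covariates and single left-out samples were tried. The wild-type differences kept their direction throughout, between 1.53 and 3.28 in the other settings. The count of the 5 genes called was 0 in ATF7+/- offspring, for the difference between labels and for the LPD genotype comparison in every setting. In ATF7+/+ offspring it was 1 with array set as a block (Aqp8) and 1 in set A alone (Chrna4), and for the CD genotype comparison it was 2 in set A alone; the cause was not tested. Signs turned for Akr1c18 in set A alone in ATF7+/- offspring (0.04) and in the difference between labels (0.02), and for Akr1c18 in set B alone in the LPD genotype comparison (-0.14). The Aqp8 difference in ATF7+/- offspring lay between -0.15 and 0.017 when each sample was left out, turning without ATF7+/- LPD replicate 8 and without ATF7+/- CD replicate 1. With the replicate block, within labels, Aqp8 in ATF7+/+ offspring gave 1.03 (adjusted p = 0.298), and the block, which across labels was added after seeing the data for the genotype comparisons, changed no diet or genotype call of the 5 genes; over all genes it called 589 in wild-type offspring, 0 in the other comparisons, and it ended the calls of Rdh13 (adjusted p = 0.0769), Lrat (0.0638) and Akr1c20 (0.0588) and made one for Hsd3b5 (2.28, adjusted p = 0.0265). Wild-type calls over all genes were 487 as reported, 1254 with array set as a block, 2118 in set A and 639 in set B. Of the 15 correlations 8 passed as reported, 3 in set A, where 12 samples were left, and 6 with the replicate block (same-numbered samples averaged, added after seeing the data). Signs turned for Aqp8 with Chrna4 (-0.0818 for deviations from the group alone, -0.0329 in set B), Aqp8 with Akr1c18 (0.16 from the group alone, 0.21 in set A, 0.107 with the replicate block), Chrna4 with Akr1c18 (-0.36 from the group alone) and Aqp8 with the cholesterol list (-0.0625 in set B, -0.0163 with the replicate block).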
